A study of Mus musculus with 24 samples.

Results

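Endoderm cultures of Setd3 knock-out mouse embryonic stem cells at day 4 were compared with wild-type cultures at day 3, the wild-type day that lay nearest to them by expression over all genes. Wild-type day 3 was thus chosen by the same counts that the comparison uses. The comparison used 6 of the 24 libraries of the series, 3 of knock-out day 4 and 3 of wild-type day 3, and the 3 wild-type day 4 libraries served to place each gene between the wild-type days. All cells were of the CJ9 line. The knock-out was a single line made by CRISPR-Cas9 and labelled setd3Δ; the wild-type carried no change named in the labels. Both genotypes had been kept with LIF on inactivated fibroblast feeders, were taken off the feeders into serum-free endoderm medium, and received Activin A from day 2. Knock-out day 4 cells had therefore had 2 days of Activin A and wild-type day 3 cells 1 day, so genotype and time cannot be told apart in this comparison alone. PolyA RNA was sequenced, and the labels leave unsaid if replicates came from separate cultures. The p-values therefore cover only the spread between these samples. For that reason, distances and counts against wild-type days 3 and 4 are a description, and genotype differences at day 0 and day 2, which share no library with the comparison, are given beside them.

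Mouse embryonic stem cells leave the naive pluripotent state through a formative, epiblast-like state. Nodal or Activin together with Wnt signalling then induces the primitive streak programme, whose T-box factors Eomes and T precede the endoderm factors Foxa2 and Sox17. Cells that pass through the streak lower their epithelial junction genes and raise Snai1 and N-cadherin, and canonical Wnt signalling feeds back on itself through Axin2 and Sp5. A culture that ran the same course 1 day late would hold wild-type day 3 levels at day 4. Each gene can be set against that description.

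Libraries held 18531390 to 24244958 counts on genes, and 17144 genes passed the filter on low counts. Setd3 (chromosome 12, 108106431 to 108179314 of GRCm38, minus strand) stood at 29.6, 29.1 and 31.1 CPM (counts scaled to a common library size) in knock-out day 4 and at 124.5, 115.7 and 120.5 CPM in wild-type day 3. Setd3 transcripts were thus lower in all 3 knock-out libraries but not absent. The gene lies in a distal block of chromosome 12 whose other genes were lower too, described at the end, so its level is no separate check of the knock-out. Replicate 1 of wild-type day 3 stood high and replicate 3 low in streak and endoderm genes: the summed CPM of 13 streak genes was 2181, 1671 and 1335. Knock-out day 4 replicate 2 was the lowest of its group at 444.0 CPM, beside 539.3 and 662.8 CPM. Results that rest on these genes are given with the range found when each of the 6 libraries was left out.

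Over all tested genes, knock-out day 4 lay closest to wild-type day 3. The root mean square difference of log2 CPM to the wild-type day 3 mean was 0.650, 0.679 and 0.629 in the 3 knock-out libraries. The same distance averaged 1.05 ± 0.0407 to day 4, 0.848 ± 0.00772 to day 2 and 1.58 ± 0.0115 to day 0 (SD, n = 3). The knock-out libraries were thus nearer to day 3 than to any other day, yet further from it than wild-type day 3 libraries were from their own mean, at 0.260. Each wild-type day 3 library enters that mean, which shortens its distance, so 0.260 is a low baseline. Gene groups did not all share that nearest day. Of 31 lists, 20 were nearest to day 3, 8 to day 2, 2 to day 4 and 1 to day 0. The list nearest to day 0 was the primitive streak list, at 1.93 ± 0.155 against 2.23 ± 0.355 to day 3. The canonical Wnt target list was nearest to day 4, at 1.08 ± 0.275 against 1.27 ± 0.0894 to day 2 and 1.53 ± 0.285 to day 3 (SD, n = 3). The nearest and next days of these 2 lists lay within the spread of the libraries. That held for other lists too, such as BMP targets, at 0.82 ± 0.234 to day 3 and 0.849 ± 0.0705 to day 2. The other list nearest to day 4, the two-cell-like list, had no count in knock-out day 4. The split of lists by nearest day is thus only a rough description.

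**Figure D1:**
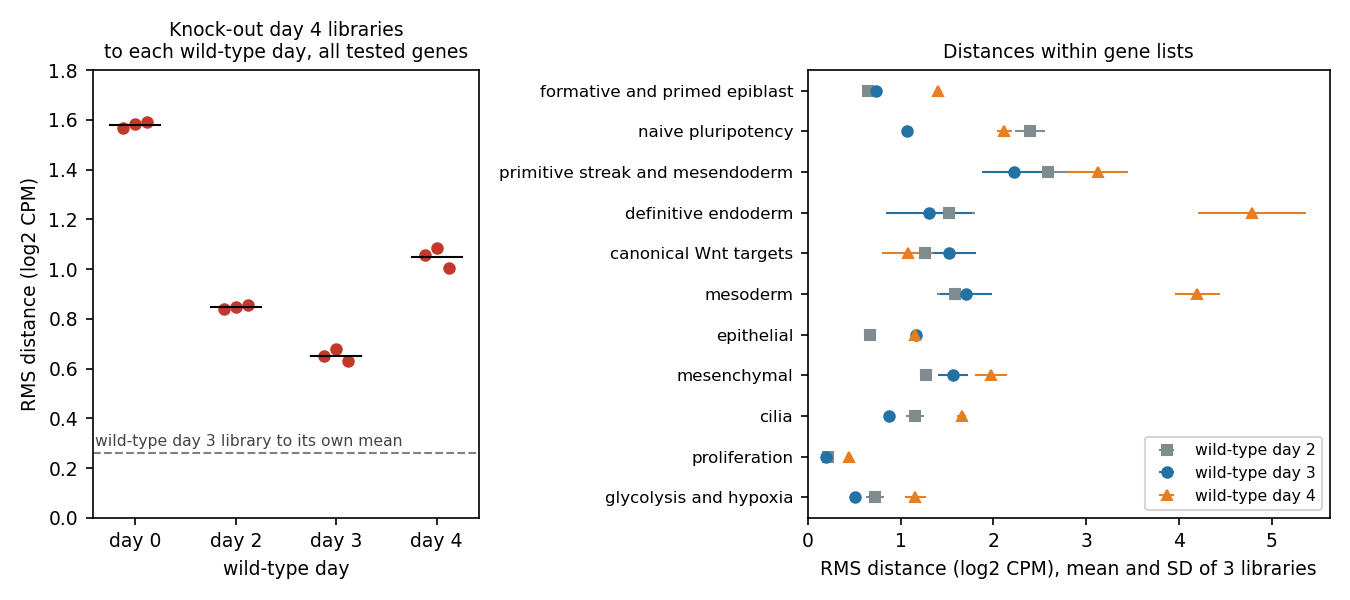
Left, root mean square distance in log2 CPM of each knock-out day 4 library (points, with the mean as a black line) to the mean of each wild-type day over 17144 genes. The dashed line is the average distance of wild-type day 3 libraries to their own mean (0.260), which each library enters. Right, the same distance within 11 gene lists, as mean and SD of 3 knock-out libraries. The endoderm and mesoderm lists lie far from day 4, and day 4 is the nearest day of the Wnt target list, within the spread of the libraries.

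Against wild-type day 3, 3082 genes were higher (18%) and 3153 lower (18.4%) in knock-out day 4 at an adjusted p under 0.05 (edgeR quasi-likelihood test, Benjamini-Hochberg). Against wild-type day 4 the counts were 4510 higher (26.3%) and 4740 lower (27.6%), and between the wild-type days 3843 genes rose (22.4%) and 3960 fell (23.1%). These comparisons share libraries, so each gene was sorted by its own pair of results. Chromosome 8 and distal chromosome 12, from 90 Mb, were set apart, which left 16116 genes elsewhere. Of these, 4518 (28.03%) were at the day 3 level, meaning past the threshold against day 4 but not against day 3. A further 505 (3.134%) lay part way, past both and between them, and 1641 (10.18%) were at the day 4 level, past the threshold against day 3 only. Outside both days, past both in 1 direction, were 3578 genes (22.2%), and 5874 (36.45%) passed neither. Over all 17144 genes, 12% were higher and 11.2% lower than both days.

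The step that the wild-type takes between day 3 and day 4 was mostly missing in knock-out day 4, more so for genes that rise in it than for genes that fall. Outside the set-apart regions, 1316 genes rose at least 2-fold in the wild-type step (8.18% of all tested genes did so, and 5.45% fell), by a median log2 fold change of 1.74. Of them, 807 (61.32%) were at the day 3 level in the knock-out, 117 (8.891%) part way and 60 (4.559%) at the day 4 level. Another 260 were lower than both days and 9 higher than both. Over all 1316 genes the median log2 fold change of knock-out day 4 was -0.14 against day 3 and -2.07 against day 4. A further 892 genes fell at least 2-fold in the step, by a median of -1.57, and 340 of these (38.12%) were at the day 3 level. For 187 (20.96%) the knock-out was at the day 4 level, 69 (7.735%) lay part way, 174 were higher than both days and 18 lower. A result that misses the threshold against day 3 does not show equal levels. The 95% interval of the difference from day 3 lay within 1.5-fold for 126 of the 807 and 81 of the 340. Leaving out each of the 9 libraries of the 3 groups in turn gave 58.55% to 67.96% of the rising genes and 34.87% to 42.05% of the falling genes at the day 3 level, with both highest shares found without wild-type day 3 replicate 1.

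**Figure D2:**
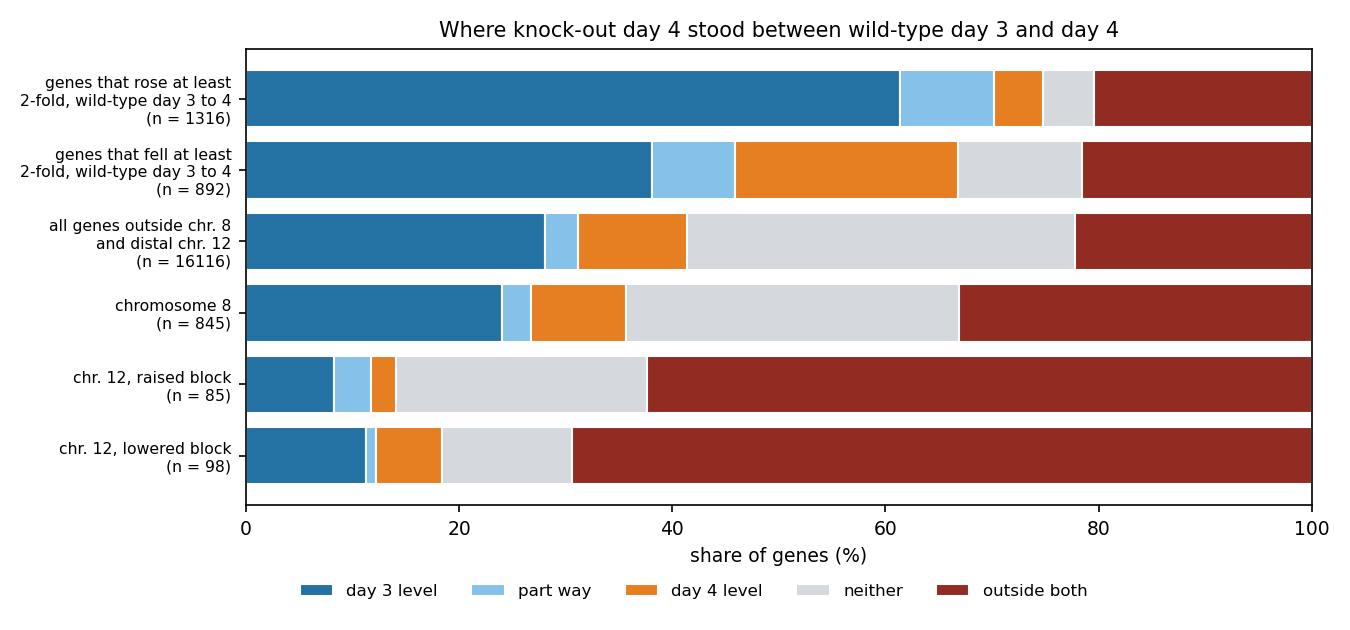
Share of genes (%) at the wild-type day 3 level, part way, at the day 4 level, past neither threshold or outside both wild-type days, for the genes of the wild-type step from day 3 to day 4 (rising, n = 1316; falling, n = 892), for all genes outside the set-apart regions and for the 3 regions. The day 3 level holds 61.32% of rising and 38.12% of falling genes, and outside both days lie 69.39% of genes in the lowered chromosome 12 block.

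The named day 3 level genes that rose in the wild-type by day 4 were within 1.5-fold of wild-type day 3 by the rule that chose them. Slc2a3, a facilitative glucose transporter (chromosome 6, 122727809 to 122801640), was at 175.6, 172.6 and 165.2 CPM in wild-type day 3 and at 164.7, 169.3 and 186.6 CPM in knock-out day 4. In wild-type day 4 it had reached 2490, 2190 and 1776 CPM. Its log2 fold change against day 3 was 0.02 ± 0.17, where ± is the standard error taken from the F statistic, and against day 4 it was -3.63 ± 0.19. Knock-out and wild-type day 3 libraries overlapped, and all 3 lay far below wild-type day 4. Plekha6, a pleckstrin homology domain protein, was at 2.83, 1.92 and 2.41 CPM in wild-type day 3, at 2.27, 2.14 and 2.72 CPM in knock-out day 4 and at 64.4, 48.6 and 47.5 CPM in wild-type day 4. Shisa2, an inhibitor of Wnt and FGF receptor maturation, gave 19.4, 12.5 and 12.6 CPM in wild-type day 3 and 14.9, 13.9 and 15.9 CPM in knock-out day 4, against 165.4, 147.4 and 123.1 CPM in wild-type day 4. A4galt, an enzyme of globo-series glycolipid synthesis, and Sec14l2, a lipid-binding protein, differed from day 3 by -0.01 ± 0.13 and 0.01 ± 0.22. Both were over 3 log2 units below day 4, at -3.33 ± 0.12 and -3.10 ± 0.21. Knock-out day 3 had 143.6, 150.5 and 153.0 CPM of Slc2a3, 1.69, 1.15 and 0.965 CPM of Plekha6 and 14.5, 11.4 and 14.2 CPM of Shisa2. For Slc2a3 and Plekha6 that lay below every wild-type library of day 3 and of day 2, which stood at 268.9, 262.6 and 233.7 CPM and 5.47, 6.01 and 6.22 CPM.

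Among genes that the wild-type lowers between day 3 and day 4, 5 at the day 3 level were named for the size of their wild-type fall, the neuronal genes Snph and Cntn2 among them. Snph, the mitochondrial anchor syntaphilin, was at 10.6, 15.4 and 17.9 CPM in wild-type day 3 and at 14.1, 13.95 and 15.4 CPM in knock-out day 4. By day 4 the wild-type stood at 1.67, 2.61 and 4.28 CPM, below every knock-out library. Cntn2, an axonal adhesion molecule, was at 33.3, 33.1 and 35.2 CPM in knock-out day 4 and 29.95, 29.7 and 28.3 CPM in wild-type day 3. It lay above all 12 wild-type libraries, though the difference from day 3 did not pass the threshold (0.21 ± 0.17; 2.36 ± 0.19 against day 4). Fam131b was -0.02 ± 0.19 and 2.79 ± 0.23. Rspo1, a secreted enhancer of Wnt signalling, was at 10.1, 9.96 and 12.8 CPM in wild-type day 3, at 11.8, 11.2 and 10.5 CPM in knock-out day 4 and at 1.77, 1.96 and 2.68 CPM in wild-type day 4. The non-coding transcript Platr21 differed from day 3 by -0.03 ± 0.17. Pou5f1, the core pluripotency factor Oct4, was also held: wild-type day 3 had 400.8, 422.2 and 435.2 CPM, knock-out day 4 had 487.7, 459.7 and 474.8 CPM, and wild-type day 4 had fallen to 94.9, 150.9 and 174.8 CPM. The 3 knock-out values of Pou5f1 lay just above all wild-type day 3 values, and the difference did not pass the threshold (0.18 ± 0.13).

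Definitive endoderm genes showed both patterns. Against wild-type day 4, 15 of 15 were lower, with a median log2 fold change of -4.43, where 27.6% of all genes were lower and their median was -0.01. Against wild-type day 3, 7 of 15 were lower and 1 higher, beside 18.4% and 18% of all genes. Their median was -1.26 beside -0.02 for all genes. Foxa3, a forkhead factor of gut endoderm, was at the day 3 level: 1.70, 2.29 and 2.64 CPM in wild-type day 3, 1.59, 1.29 and 1.85 CPM in knock-out day 4, and 12.98, 11.7 and 9.05 CPM in wild-type day 4. Sfrp5, Prdm1, Cxcr4, Cer1 and Shisa2 were at the day 3 level too. Foxa2, a pioneer factor of endoderm, was lower than both days: 177.3, 151.9 and 117.9 CPM in wild-type day 3, 46.8, 37.4 and 73.4 CPM in knock-out day 4, and 145.0, 159.9 and 151.2 CPM in wild-type day 4. No knock-out library overlapped either wild-type day, and the log2 fold change was -1.50 ± 0.24 against day 3. Gata4, a zinc finger factor of endoderm and heart, was 0.908, 0.809 and 0.973 CPM in knock-out day 4, under the 6.37, 3.78 and 1.97 CPM of wild-type day 3, and Foxa1 differed by -2.29 ± 0.40. Foxa2 was already lower in the knock-out at day 0 (-3.22 ± 0.63, adjusted p = 0.00135) and day 2 (-4.74 ± 0.60, adjusted p = 1.33e-05; edgeR). Trh, a thyrotropin-releasing hormone precursor listed as an endoderm marker, went the other way and lay part way to day 4, at 1350, 1395 and 1602 CPM between 727.2, 871.8 and 947.3 CPM and 2396, 2611 and 2544 CPM. The lower calls of Hhex, Gata6, Dkk1 and Sox17 were lost under at least 1 alternative. Sox17 libraries overlapped, at 38.8, 12.4 and 5.14 CPM in wild-type day 3 and 6.53, 3.81 and 11.3 CPM in knock-out day 4. Leaving out 1 library gave 5 to 10 lower members, with 5 without wild-type day 3 replicate 1, without knock-out replicate 1 or without knock-out replicate 2.

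A smaller set of genes was at the wild-type day 4 level in the knock-out. Of the 60 risers of at least 2-fold, 4 were named. They were Myh14, a non-muscle myosin heavy chain, Myo6, the myosin that moves towards actin minus ends, the actin-binding Lima1 and the pro-apoptotic Bmf. Bmf and Myo6 had knock-out day 4 means of 29.96 and 35.65 CPM, close to wild-type day 2, at 31.76 and 31.63 CPM. Lima1 fell in the knock-out, from a mean of 36.63 CPM at day 2 to 16.08 CPM at day 4. Myh14 was at 10.8, 13.2 and 14.7 CPM in wild-type day 3, at 30.9, 33.2 and 33.4 CPM in knock-out day 4 and at 33.5, 33.0 and 33.98 CPM in wild-type day 4. Its knock-out libraries lay above every wild-type day 3 library and level with day 4, yet Myh14 was also higher in the knock-out at day 0 (0.47 ± 0.12, adjusted p = 0.00579) and day 2 (0.61 ± 0.12, adjusted p = 0.000237; edgeR). Of the fallers, Tnfrsf19, a receptor of the tumour necrosis factor family, went from 74.0, 71.0 and 68.7 CPM in wild-type day 3 to 11.0, 20.1 and 20.2 CPM in wild-type day 4, and the knock-out had 15.8, 12.1 and 20.3 CPM. Tnfrsf19 was below wild-type at day 0 (-1.40 ± 0.22, adjusted p = 9.99e-05) and day 2 (-1.60 ± 0.22, adjusted p = 1.62e-05; edgeR) as well. Shisa6, Rtl8b and Tcea3 stood at -1.65 ± 0.18, -1.59 ± 0.20 and -1.48 ± 0.12 against day 3 and within 0.13 log2 units of day 4. A gene at the day 4 level in the knock-out need not have moved with the wild-type: in knock-out day 3 Tnfrsf19 was at 7.54, 6.12 and 8.33 CPM, lower than 1 day later.

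Part way genes lay between the 2 wild-type days. Irs4, an insulin receptor substrate, was at 11.3, 9.21 and 8.53 CPM in wild-type day 3, 47.4, 45.2 and 45.0 CPM in knock-out day 4 and 413.5, 260.4 and 205.3 CPM in wild-type day 4. All 3 groups were separate, but wild-type day 2 already had 52.0, 40.5 and 49.3 CPM, so the knock-out value was also close to that earlier day. Myocd, a co-activator of serum response factor, Stk32a and Tmem184a were 1.90 ± 0.62, 1.26 ± 0.20 and 1.37 ± 0.20 above day 3 and between -4.09 and -2.73 against day 4. Among fallers, Dppa5a, an RNA-binding protein of pluripotent cells, was -0.94 ± 0.23 against day 3 and 1.85 ± 0.27 against day 4. Grm6 and Prune2 were at -0.83 ± 0.21 and -1.37 ± 0.14 against day 3, and the call of Myocd was lost under at least 1 alternative.

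Genes outside both wild-type days are those that no position between the 2 days can place. Outside chromosome 8 and distal chromosome 12 there were 1753 higher and 1825 lower, and 362 and 594 of these differed at least 2-fold from day 3, beside 3.38% higher and 5.48% lower by that rule among all genes. Of the higher genes, 484 (27.61%) had a knock-out mean between those of wild-type days 2 and 3, 207 (11.81%) lay within the wild-type course only by counting day 0, and 1062 (60.58%) lay beyond the mean of every wild-type day. The lower genes divided into 438 (24%), 326 (17.86%) and 1061 (58.14%). For 739 of the higher (42.16%) and 669 of the lower genes (36.66%), no knock-out day 4 library overlapped any of the 12 wild-type libraries. The rule that sorted these genes already favours separation from wild-type days 3 and 4. Neither this share nor the share beyond the mean of every wild-type day was counted over all genes. Many of these genes already differed between the genotypes before Activin A. Among the 1753 higher genes, 488 (27.8%) were higher in the knock-out at day 0 and 110 (6.27%) lower, beside 8.93% and 10.6% of all 16116 genes. At day 2, 711 (40.6%) were higher and 122 (6.96%) lower, beside 14.8% and 15.9%. The 1825 lower genes held 514 (28.2%) that were lower at day 0 and 905 (49.6%) at day 2, with 23 (1.26%) and 56 (3.07%) higher. Day 3 level genes were near the background, with 9.3% higher and 8.15% lower at day 0 and 16.1% and 15.2% at day 2. Over all 17144 genes, 10.6% were higher and 10.5% lower at day 0, and 16.2% and 15.7% at day 2. Fitting only the groups compared called far fewer genes at day 0, as given in the closing part. The shares of each class were not recounted under that fit.

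**Figure D3:**
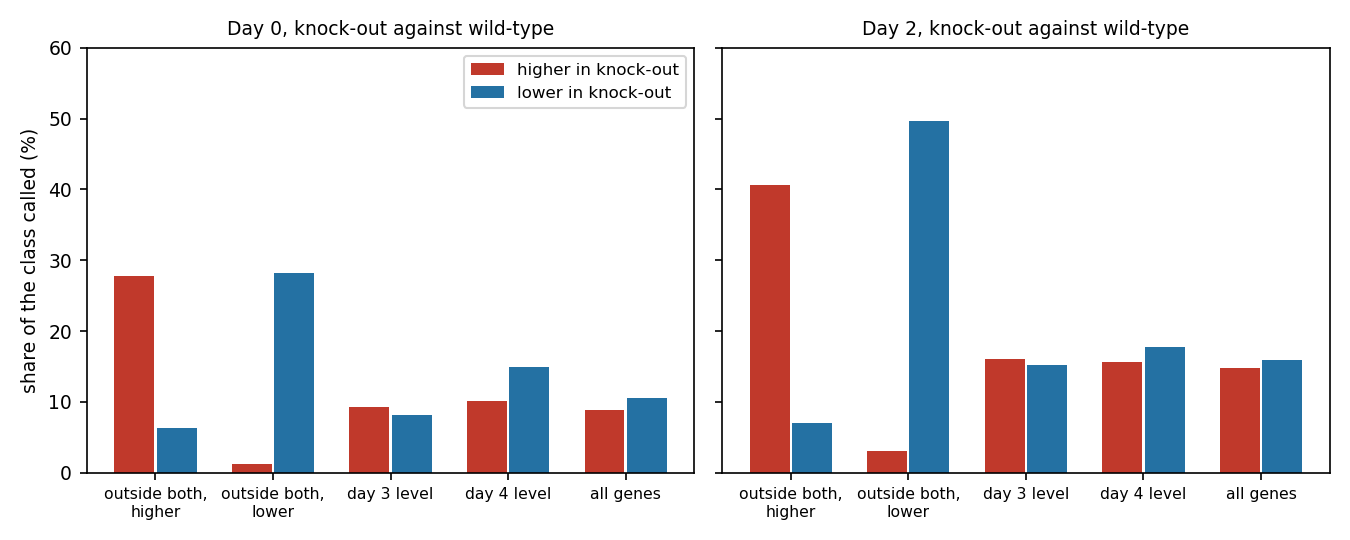
Share of genes (%) higher (red) or lower (blue) in the knock-out at day 0 (left) and day 2 (right), libraries that the day 4 to day 3 comparison does not use, for genes outside both wild-type days, at the day 3 level, at the day 4 level and for all 16116 genes outside the set-apart regions. Genes higher or lower than both days were called in the same direction in 27.8% and 28.2% at day 0 and in 40.6% and 49.6% at day 2.

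Most primitive streak genes were below both days, 9 of 13, where 11.2% of all genes were. Of the 13, 10 were lower than wild-type day 3 and none higher, beside 18.4% lower and 18% higher among all genes. Their median log2 fold change was -1.86, and 10 or 11 were lower when any 1 library was left out. T, or brachyury (chromosome 17, 8434423 to 8442496, plus strand), was at 288.3, 235.0 and 142.7 CPM in wild-type day 3, at 61.2, 107.9 and 114.5 CPM in wild-type day 4 and at 32.6, 16.9 and 41.2 CPM in knock-out day 4. Every knock-out library lay below every wild-type library of both days, and the log2 fold change against day 3 was -2.88 ± 0.37. In bulk RNA, fewer cells expressing such a gene and less RNA per cell cannot be told apart. T was far lower in the knock-out at day 0 (-7.06 ± 0.64, adjusted p = 7.06e-07) and day 2 (-7.22 ± 0.77, adjusted p = 2.48e-06; edgeR). Eomes, the T-box factor upstream of endoderm (chromosome 9, 118478212 to 118486132, plus strand), was at 552.5, 492.1 and 412.0 CPM in wild-type day 3 and 100.3, 82.4 and 132.4 CPM in knock-out day 4. Wild-type day 4 held Eomes at 498.0, 385.3 and 356.3 CPM, so neither wild-type day approached the knock-out. The homeobox factor Evx1 was at 43.5, 36.5 and 25.8 CPM in wild-type day 3 and 2.59, 1.71 and 4.14 CPM in knock-out day 4, and Mixl1 at 263.5, 161.3 and 113.8 against 20.2, 15.2 and 36.0 CPM. Both were well separated, at -3.65 ± 0.29 and -2.92 ± 0.30. Fgf8 was -1.19 ± 0.21 against day 3. Nodal itself was at the day 4 level, -0.52 ± 0.14 against day 3 and 0.11 ± 0.14 against day 4, and Foxh1, Tbx6 and Mesp2 passed no threshold against day 3. Gsc, lower than both days, lies in the raised block of chromosome 12, and its call against day 3 was lost when only the groups compared were fitted.

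T and Eomes were higher in knock-out day 4 than in knock-out day 3. T went from 2.58, 2.07 and 3.596 CPM in knock-out day 3 to 32.6, 16.9 and 41.2 CPM in knock-out day 4, and Eomes from 32.2, 30.5 and 36.0 to 100.3, 82.4 and 132.4 CPM. The day 4 libraries exceeded all day 3 libraries of the same genotype for both genes. For T the knock-out day 4 level overlapped that of wild-type day 2, 42.03, 33.3 and 17.3 CPM, whereas for Eomes it lay between wild-type day 2, at 20.8, 15.4 and 11.6 CPM, and day 3. The 2 genes thus stood at the levels of different wild-type times. Mesp1, the factor of early cardiac mesoderm (chromosome 7, 79792241 to 79793788, minus strand), gave 0 counts in all 3 knock-out day 4 libraries. It was at 4.48, 1.07 and 0.402 CPM in wild-type day 3 and 14.6, 11.1 and 13.5 CPM in wild-type day 4. With a floor of 3 counts over the group, Mesp1 was at least 42.2-fold lower than day 3 (14.9-fold without wild-type day 3 replicate 1) and at least 276.5-fold lower than day 4.

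Of 16 tested Wnt ligands, 8 were lower than wild-type day 3 and 1, Wnt9a, higher, beside 18.4% and 18% of all genes. Wnt3, the ligand that starts the streak (chromosome 11, 103774150 to 103817957, plus strand), was at 96.7, 79.8 and 75.9 CPM in wild-type day 3, 59.2, 51.1 and 54.0 CPM in wild-type day 4 and 24.2, 20.3 and 24.9 CPM in knock-out day 4. The knock-out lay below both days without overlap (-1.86 ± 0.16 against day 3), and Wnt3 was lower at day 0 (-4.04 ± 0.25, adjusted p = 1.07e-10) and day 2 (-3.94 ± 0.45, adjusted p = 9.35e-07; edgeR). Wnt11 and Wnt2b were also below both days, at -2.05 ± 0.23 for Wnt11 against day 3. Wnt8a and Wnt5b were at the day 4 level: the wild-type lowered Wnt8a from 84.2, 95.4 and 83.4 CPM to 8.36, 17.3 and 19.7 CPM, and the knock-out had 9.89, 7.47 and 15.2 CPM. Receptors were mixed, 5 higher and 5 lower of 15. Fzd7 was higher than both days (0.71 ± 0.05 against day 3), Ror2, a receptor of non-canonical Wnt ligands, was lower than both (-1.97 ± 0.16), Fzd10 was at the day 4 level, and Fzd5 was at the day 3 level, with a change of -3.64 ± 0.14 against day 4.

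Of 15 canonical Wnt targets, 9 were lower than day 3 and 1 higher, beside 18.4% and 18% of all genes. Their median was -1.19, and 7 to 9 were lower when 1 library was left out. Axin2, the feedback scaffold of the beta-catenin destruction complex, was at 90.2, 104.6 and 99.7 CPM in wild-type day 3, 28.0, 22.1 and 35.8 CPM in knock-out day 4 and 36.2, 36.4 and 43.9 CPM in wild-type day 4. It was -1.78 ± 0.17 against day 3 but only -0.44 ± 0.17 against day 4, and the wild-type lowered Axin2 between the 2 days. Sp5, a zinc finger repressor induced by Wnt (chromosome 2, 70474923 to 70477729, plus strand), was at 95.3, 59.7 and 39.9 CPM in wild-type day 3, 10.1, 5.24 and 13.5 CPM in knock-out day 4 and 33.7, 36.2 and 47.7 CPM in wild-type day 4. Every knock-out library of Sp5 lay below every library of both wild-type days, which overlapped each other. The change against day 3 was -2.76 ± 0.39. Sp8, in the lowered chromosome 12 block, fell in the wild-type from 20.99, 25.6 and 25.3 to 1.52, 4.42 and 4.64 CPM and was at 4.58, 2.71 and 3.89 CPM in the knock-out. Nkd1 on chromosome 8, Cdx1, Cdx2, Lef1, Lgr5 and Apcdd1 made up the other lower targets, and Rnf43 was the higher one. The calls of Lgr5, Apcdd1 and Rnf43 were lost under some alternatives, and no target was higher without knock-out replicate 1, knock-out replicate 3 or wild-type day 3 replicates 1 or 2. Axin2 was lower in the knock-out at day 0 (-1.39 ± 0.18, adjusted p = 1.32e-05) and did not pass the threshold at day 2 (0.01 ± 0.19, adjusted p = 0.968), and Sp5 was lower on both days, at -3.11 ± 0.43 (adjusted p = 5.43e-05) and -6.10 ± 1.33 (adjusted p = 0.00209; edgeR). Of 11 tested secreted inhibitors, 1 was higher and 2 lower than day 3, with a median of -0.06, beside 18% and 18.4% of all genes. Against day 4, 2 were higher and 6 lower, with a median of -3.29, beside 26.3% and 27.6% of all genes. Frzb was lower than both days, at -2.83 ± 0.46 against day 3.

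**Figure D4:**
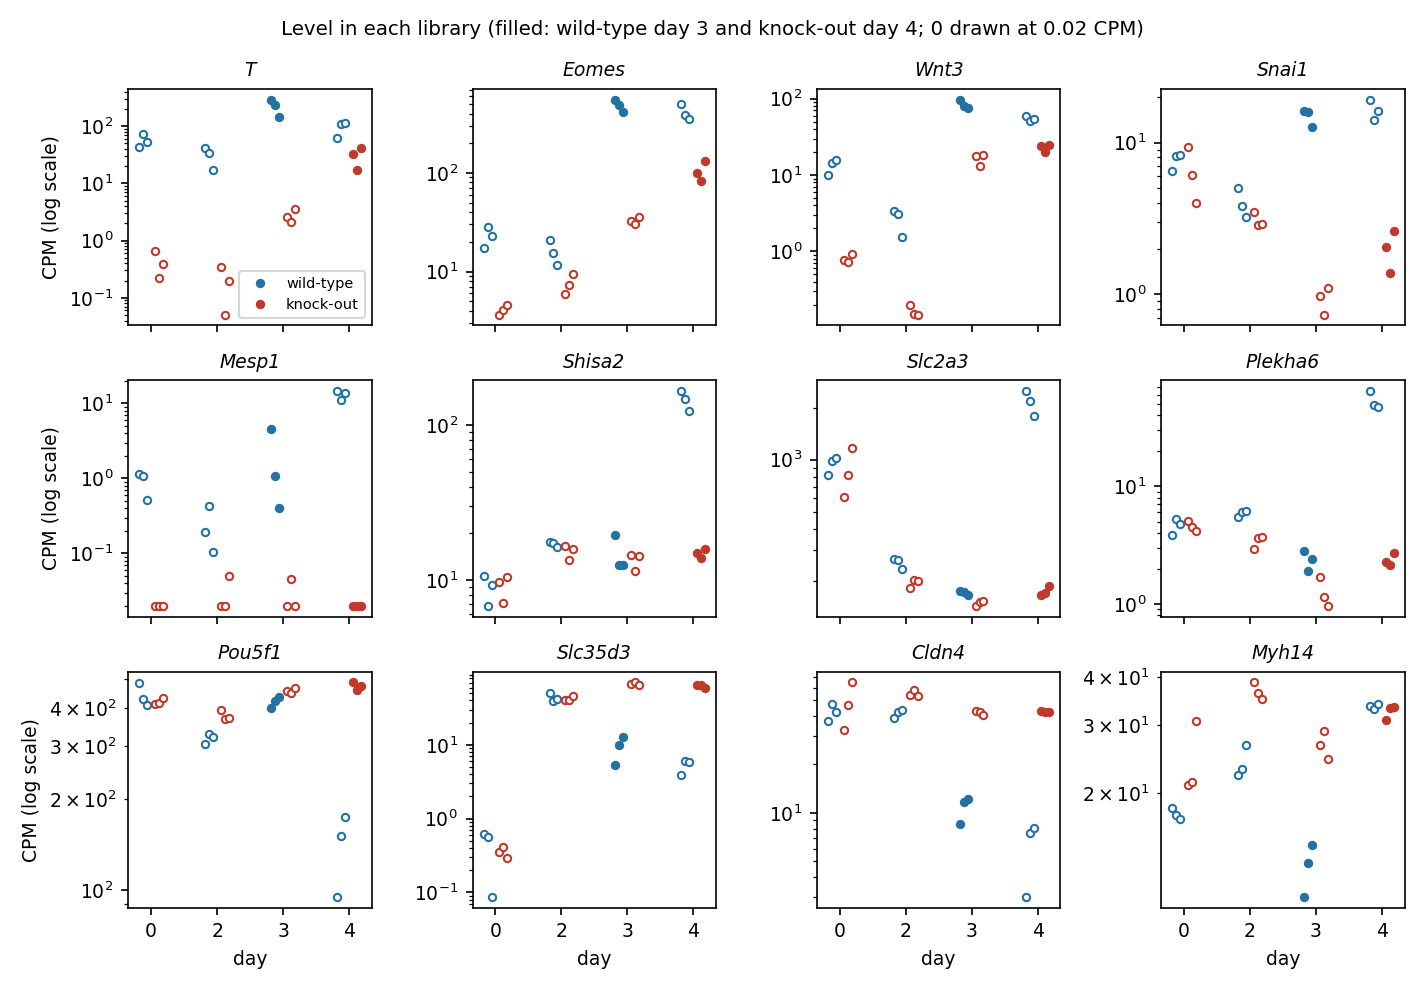
CPM on a log scale by day for 12 genes, 1 point per library (blue, wild-type; red, knock-out; filled, wild-type day 3 and knock-out day 4; libraries at 0 drawn at 0.02). T, Eomes, Wnt3 and Snai1 lie below both wild-type days, Shisa2, Slc2a3, Plekha6 and Pou5f1 at the day 3 level, Slc35d3 and Cldn4 above both days, and Myh14 at the day 4 level.

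Promoters of 300 bases, 250 before and 50 after each start, were searched for the TCF/LEF core ATCAAAG, the site through which canonical Wnt signalling acts, and for the T-box core TCACACC, on both strands. RefSeq promoters of build GRCm38.p6 matched 12045 of the 17144 tested genes. The first letters were in 2.491% of these promoters and the second in 3.387%. Genes lower than both days and at least 2-fold below day 3 had 15 (3.488%) and 8 (1.86%) of 430 promoters with a match. Genes higher than both days by the same rule had 1 (0.3846%) and 2 (0.7692%) of 260, and day 3 level genes of the rising step 12 (2.034%) and 23 (3.898%) of 590. Matches were thus rare in every class, and no test was run on these shares. Of 30 described genes whose promoter was read, 3 held a match and are shown: Mesp1 and Sp5, below both days, and A4galt, at the day 3 level. Capitals mark the matched letters, CTTTGAT being the core read on the opposite strand. Coordinates are chr7:79793541-79793840 (minus) for Mesp1, chr2:70474673-70474972 (plus) for Sp5 and chr15:83251680-83251979 (minus) for A4galt.
Mesp1: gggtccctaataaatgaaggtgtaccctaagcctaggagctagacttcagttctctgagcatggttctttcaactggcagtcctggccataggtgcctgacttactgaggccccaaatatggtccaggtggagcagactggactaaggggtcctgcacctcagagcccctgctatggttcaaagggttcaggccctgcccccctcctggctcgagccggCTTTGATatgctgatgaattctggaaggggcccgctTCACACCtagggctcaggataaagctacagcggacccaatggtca
Sp5: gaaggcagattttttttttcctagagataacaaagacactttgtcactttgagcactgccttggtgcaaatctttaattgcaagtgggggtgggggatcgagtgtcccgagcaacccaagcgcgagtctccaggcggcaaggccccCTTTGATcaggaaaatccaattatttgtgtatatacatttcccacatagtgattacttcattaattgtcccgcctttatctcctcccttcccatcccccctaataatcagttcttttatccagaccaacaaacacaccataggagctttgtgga
A4galt: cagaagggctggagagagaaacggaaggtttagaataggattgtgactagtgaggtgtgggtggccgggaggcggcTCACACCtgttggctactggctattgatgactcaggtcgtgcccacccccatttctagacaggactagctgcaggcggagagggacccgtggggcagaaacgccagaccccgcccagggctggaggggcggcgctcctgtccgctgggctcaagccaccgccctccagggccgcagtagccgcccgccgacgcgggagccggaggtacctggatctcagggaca
A match is a description of these letters and not a site of binding, and Axin2, Wnt3, Eomes and Evx1 held neither in this window.

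Nodal and Activin targets were not uniformly lower than in wild-type day 3, which had 1 day of Activin A against 2 in knock-out day 4. Of 10 targets, 4 were higher than wild-type day 3 and 3 lower, beside 18% and 18.4% of all genes. Against wild-type day 4, 3 were higher and 6 lower, with a median of -0.41, beside 26.3% and 27.6% of all genes. Lefty1, a secreted Nodal antagonist, was at 134.5, 89.5 and 71.0 CPM in wild-type day 3, 257.8, 251.5 and 260.5 CPM in knock-out day 4 and 439.1, 395.2 and 379.8 CPM in wild-type day 4. Its knock-out libraries were close together and lay between the 2 wild-type days without overlap. Smad7, the intracellular inhibitor of the pathway, was higher than both days at 105.2, 97.1 and 98.4 CPM, against 47.3, 51.4 and 59.96 CPM in wild-type day 3 and 43.5, 46.4 and 49.6 CPM in wild-type day 4. Smad7 was higher in the knock-out at day 2 as well (0.88 ± 0.17, adjusted p = 0.000591; edgeR). The co-receptor Tdgf1 was lower than both days (-0.80 ± 0.17 against day 3). BMP targets had 4 of 8 lower than day 3, Msx1, Id1, Smad6 and Bambi, but 2 without wild-type day 3 replicate 1 or without knock-out replicate 1. Against wild-type day 4, 7 of the 8 were lower and none higher. Of 12 genes of FGF and ERK feedback, 2 were higher and 3 lower than day 3, led by Spry1, a receptor kinase inhibitor, at 1.02 ± 0.09. These counts were near the shares of all genes. Only 1 was higher without wild-type day 3 replicate 1, knock-out replicate 1 or knock-out replicate 3.

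Pluripotency genes did not move as 1 group. Naive genes had 2 higher and 5 lower of 16 against day 3, and the general list 2 higher and 4 lower of 9. Among all genes 18% were higher and 18.4% lower. Fgf4, a growth factor of the naive and early epiblast state, was at 9.20, 14.4 and 18.5 CPM in wild-type day 3 and 58.5, 58.6 and 44.9 CPM in knock-out day 4, and Utf1, a chromatin factor of pluripotent cells, at 65.1, 98.5 and 123.3 against 328.9, 322.4 and 293.2 CPM. Both were higher than either wild-type day. For Fgf4, wild-type day 2 held 65.5, 74.1 and 81.9 CPM, above the knock-out, whereas Utf1 at wild-type day 2, 267.6, 259.8 and 299.2 CPM, overlapped it. Nanog was part way to day 4 at -0.61 against day 3, and Klf4 was lower than both days. Formative and primed epiblast genes had 6 higher and 3 lower of 12, led by Sall2, Sox3 and Pou3f1. Pou3f1, the factor Oct6, was at 29.7, 40.5 and 49.0 CPM in wild-type day 3, 115.8, 116.1 and 105.6 CPM in knock-out day 4 and 196.2, 176.2 and 208.1 CPM in wild-type day 2. Its knock-out level was thus between those of wild-type days 2 and 3. The list as a whole lay nearest to wild-type day 2, and Otx2, Zic2 and Zic5 were at the day 3 level. Of 9 DNA methylation genes, 3 were higher (Dnmt3a, Dnmt3b and Tet3), but only 1 without wild-type day 3 replicate 1.

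Epithelial genes were higher than day 3 in 12 of 12, with a median of 0.97, and 10 to 12 when 1 library was left out. Among all genes 18% were higher and 18.4% lower. Against wild-type day 4, however, 4 of the 12 were higher and 4 lower, with a median of 0.04. The wild-type itself raised 9 of them between day 3 and day 4. Mesenchymal genes were lower in 6 of 9, with a median of -1.57, and in 6 when any library was left out. Cldn4, a tight junction claudin (chromosome 5, 134945119 to 134946934, minus strand), was at 8.49, 11.6 and 12.3 CPM in wild-type day 3, 3.00, 7.45 and 8.01 CPM in wild-type day 4 and 42.8, 42.4 and 42.7 CPM in knock-out day 4. Wild-type day 2 had 39.1, 42.6 and 43.8 CPM, a range that holds the knock-out values. Ocln, the junction protein occludin, was instead at the day 4 level: 18.9, 22.1 and 23.3 CPM in wild-type day 3, 43.7, 46.2 and 42.2 CPM in knock-out day 4 and 45.7, 43.1 and 41.4 CPM in wild-type day 4. Tjp3 and Cldn3 were higher than both days, and Krt8, Krt18 and Krt19 part way. The call of Krt19 against day 3 was lost under some alternatives, no filter on low counts among them. Cdh1, E-cadherin, was higher than both days (0.57 ± 0.06 against day 3) but lies on chromosome 8. Snai1, a repressor of E-cadherin, was at 16.2, 15.8 and 12.7 CPM in wild-type day 3 and 2.04, 1.38 and 2.63 CPM in knock-out day 4, with 19.2, 14.2 and 16.2 CPM in wild-type day 4. The change was -2.88 ± 0.25, and Snai1 did not pass the threshold between genotypes at day 0 (-0.25 ± 0.22, adjusted p = 0.478) or day 2 (-0.38 ± 0.26, adjusted p = 0.284; edgeR). Cdh2, N-cadherin, was at 151.4, 82.4 and 59.9 CPM in wild-type day 3 and 26.5, 25.7 and 35.8 CPM in knock-out day 4, and Zeb1, Zeb2, Twist1 and, on chromosome 8, Cdh11 were lower too.

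**Figure D5:**
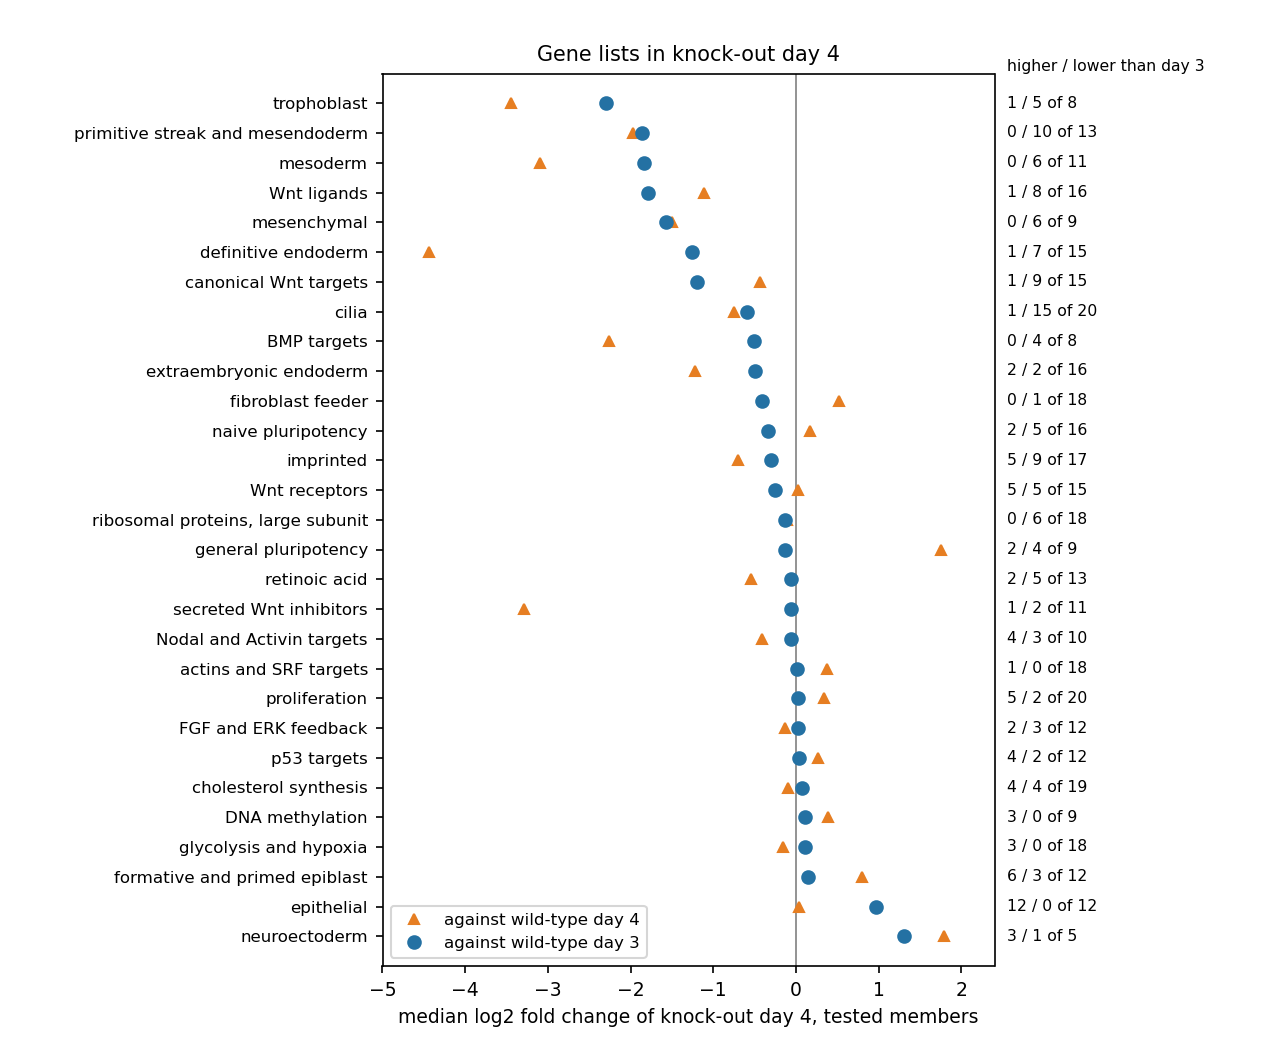
Median log2 fold change of knock-out day 4 against wild-type day 3 (circles) and day 4 (triangles) for the tested members of 29 lists, with the number of members higher and lower than day 3 at the right. The endoderm list lies at -1.26 against day 3 and -4.43 against day 4, and the epithelial list at 0.97 and 0.04.

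Markers of other cell types did not move as 1 group, beside 18% higher and 18.4% lower than day 3 among all genes. Mesoderm genes were lower in 6 of 11 against day 3 and none was higher, but only 3 were lower without wild-type day 3 replicate 1 or without knock-out replicate 1. Kdr, the VEGF receptor of early mesoderm, was at 2.26, 1.23 and 0.581 CPM in wild-type day 3, 0, 0.0476 and 0.195 CPM in knock-out day 4 and 75.2, 36.3 and 32.6 CPM in wild-type day 4. Hand1 was at 0.708, 0.107 and 0.0894 CPM in wild-type day 3 and gave 0 counts in all 3 knock-out libraries. It was at least 6.46-fold lower than day 3, or 2.06-fold without wild-type day 3 replicate 1, and at least 281.8-fold lower than day 4, and its call against day 3 was lost under 6 alternatives. The summed CPM of the 15 mesoderm markers was 9.17, 8.38 and 13.6 in knock-out day 4, below the 65.1, 39.4 and 29.9 of wild-type day 3. Of 5 tested neuroectoderm markers, 3 were higher, Nes, Hes5 and Rax, and 1, Six3, lower, with 1 higher without knock-out replicate 1 or without wild-type day 3 replicate 3. The sum over 12 markers was 397.9, 389.5 and 406.8 against 250.1, 269.3 and 257.1. Nearly all of that sum was Nes, an intermediate filament of neural progenitors that other cells also make, at 396.0, 387.4 and 405.3 CPM, and 4 of the 12 markers had no count in knock-out day 4. Trophoblast genes were lower in 5 of 8, which include Eomes, Cdx2 and Hand1, and Tfap2c was lowest by adjusted p after Eomes at -2.97 ± 0.36. Fibroblast feeder markers had 1 of 18 lower, Twist2, and none without wild-type day 3 replicate 1 or without knock-out replicates 2 or 3, with sums of 60.8, 56.2 and 52.7 against 65.6, 67.6 and 73.8 in wild-type day 3. Extraembryonic endoderm genes had 2 higher and 2 lower of 16, and 8 two-cell-like genes in the table had no count in knock-out day 4. The part of these cells in the results was not tested.

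Cilia genes were lower in 15 of 20, with 1 higher and a median of -0.59, beside 18.4% lower and 18% higher among all genes. Bbs1, a subunit of the ciliary BBSome, was at 9.62, 8.15 and 9.43 CPM in wild-type day 3, 2.27, 1.71 and 3.16 CPM in knock-out day 4 and 8.80, 10.4 and 8.96 CPM in wild-type day 4. The intraflagellar transport gene Ift88 was -0.56 ± 0.08 against day 3, and both were lower at day 2, Bbs1 by -1.93 ± 0.24 (adjusted p = 1.14e-06) and Ift88 by -0.44 ± 0.08 (adjusted p = 0.000177; edgeR). Kif3a and Ift172 were lower than both days too, and Ift140 was part way to day 4, at 0.34 ± 0.09. With 1 library left out, 12 to 14 of the list were lower.

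Imprinted genes had 5 higher and 9 lower of 17, beside 18% and 18.4% of all genes. Peg3, a paternally expressed zinc finger gene (chromosome 7, 6703892 to 6730431, minus strand), was at 482.9, 424.8 and 381.3 CPM in wild-type day 3, 169.8, 163.7 and 177.7 CPM in knock-out day 4 and 1561, 1471 and 1466 CPM in wild-type day 4. Its neighbour Usp29 differed by -1.25 ± 0.14, and Peg3 and Usp29 were lower at day 0 (-1.41 ± 0.10, adjusted p = 9.53e-10, and -2.05 ± 0.19, adjusted p = 3e-08; edgeR). Grb10, an adaptor of insulin receptor signalling, was part way at 299.9, 296.6 and 323.2 CPM, against 94.95, 77.2 and 59.6 CPM in wild-type day 3. Dlk1, Rian and Mirg were lower and lie in the lowered block of chromosome 12, and the call of Mirg was lost under 6 alternatives, DESeq2 size factors among them. Of 13 retinoic acid genes, 2 were higher and 5 lower, with 3 lower without wild-type day 3 replicate 1. Cyp26a1, which degrades retinoic acid, was at 49.6, 20.1 and 9.03 CPM in wild-type day 3, 1.27, 1.38 and 3.02 CPM in knock-out day 4 and 318.9, 245.5 and 213.9 CPM in wild-type day 4, and it was lower at day 0 (-8.15 ± 1.23, adjusted p = 0.000149; edgeR).

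Of 20 proliferation genes, 5 were higher and 2 lower than wild-type day 3, whereas 18 were higher and 1 lower than day 4. Among all genes 18% were higher and 18.4% lower than day 3, and 26.3% and 27.6% than day 4. The 5 higher fell to 2 without knock-out replicate 2 or without wild-type day 3 replicate 2, and to 3 without wild-type day 3 replicate 1. Mcm2, a subunit of the replicative helicase, was at 460.4, 486.5 and 496.6 CPM in wild-type day 3, 501.5, 502.3 and 492.9 CPM in knock-out day 4 and 338.0, 352.7 and 353.3 CPM in wild-type day 4. Glycolysis and hypoxia genes had 3 higher and none lower of 18 against day 3, Hk1, Pdk1 and Pfkl, and 2 higher and 7 lower against day 4. Of 18 actin and serum response factor genes, 1, Tagln2, was higher, and Actb differed by -0.07 ± 0.06. Cholesterol synthesis had 4 higher and 4 lower of 19, led by Ebp, a sterol isomerase, at -1.13 ± 0.12. Of 12 p53 targets, 4 were higher and 2 lower, counts that fell to 2 higher without knock-out replicate 1 and to 0 lower without knock-out replicate 2. Ribosomal proteins of the large subunit had 6 of 18 lower, from -0.13 for Rpl4 to -0.20 for Rpl19, and 1 to 7 when 1 library was left out, with 1 without wild-type day 3 replicate 1.

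Of the 8 named genes highest above both days, all but Cbln4 had a higher mean in wild-type day 2 than in wild-type day 3. Slc35d3, of the nucleotide sugar transporter family (chromosome 10, 19847916 to 19851459, minus strand), was at 51.1, 38.9 and 42.3 CPM in wild-type day 2, 5.28, 10.0 and 13.0 CPM in wild-type day 3 and 3.89, 6.05 and 5.82 CPM in wild-type day 4. Knock-out day 4 had 64.2, 64.3 and 58.2 CPM, above all 12 wild-type libraries, and the genotypes did not pass the threshold at day 2 (-0.05 ± 0.19, adjusted p = 0.867; edgeR). Abcg1, a cholesterol exporter, was at 2.17, 3.41 and 5.27 CPM in wild-type day 3 and 29.1, 30.2 and 32.0 CPM in knock-out day 4, with 44.2, 39.5 and 45.9 CPM in wild-type day 2. The same order, wild-type day 2 above knock-out day 4 and knock-out day 4 above wild-type day 3, held for the means of Sez6, Spon1 and Ttbk1. Kndc1 and Rgl3, a guanine exchange factor of Ral, were 2.57 ± 0.17 and 2.38 ± 0.26 above day 3. Cbln4, a secreted synaptic protein, differed in that no wild-type day from 2 to 4 was high: wild-type libraries held 1.48 to 4.77 CPM and knock-out day 4 held 16.7, 17.5 and 16.7 CPM.

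At the low end, the strongest differences included genes of mesoderm and Xlr3a, of the X chromosome. Xlr3a was at 15.3, 17.0 and 20.02 CPM in wild-type day 3 and 0.318, 0.143 and 0 CPM in knock-out day 4. It was lower by about the same amount at day 0 (-6.17 ± 0.27, adjusted p = 3.78e-14) and day 2 (-6.13 ± 0.27, adjusted p = 3.76e-14; edgeR) as against wild-type day 3 (-6.74 ± 0.33). Near-identical Xlr3 copies can share reads, so the value of this copy is uncertain. Aplnr, the apelin receptor of migrating mesendoderm, was at 41.0, 23.5 and 12.2 CPM in wild-type day 3, 1.32, 0.809 and 1.12 CPM in knock-out day 4 and 30.2, 34.5 and 37.3 CPM in wild-type day 4. Evx1os, an antisense transcript that overlaps Evx1, was -4.43 ± 0.27, and the strand setting of the counting is unknown here, so the 2 genes cannot be told apart. Klhl6 and Hkdc1, a hexokinase domain protein, each had 2 counts over the 3 knock-out libraries. The ratio of wild-type day 3 to knock-out was 22.4 (95% counting interval 5.85 to 191) for Klhl6, whose wild-type day 3 libraries had 1.51, 0.373 and 0.223 CPM, and 18.9 (4.87 to 162) for Hkdc1. Without wild-type day 3 replicate 1 the ratio of Klhl6 was 9.27 (2.06 to 85.3).

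Chromosome 8 and distal chromosome 12 genes differed from the rest in ways that the 2 wild-type days did not share. Of 845 genes on chromosome 8, 250 (29.59%) were higher and 30 (3.55%) lower than both days. Outside the set-apart regions, 10.88% of genes were higher and 11.32% lower than both. The median log2 fold change of chromosome 8 against day 3 was 0.19, beside 0.20 against day 4. The knock-out was higher by similar medians at day 0 (0.24) and day 2 (0.21). Of 85 genes in a raised block of chromosome 12 that starts at 90 Mb, 52 (61.18%) were higher than both days, with a median of 1.11 against day 3 and 1.05 and 0.99 at days 0 and 2. Of 98 genes in the lowered block that follows it up to the chromosome end, 67 (68.37%) were lower than both, with a median of -0.92, and -0.74 and -0.94 at days 0 and 2. Chromosome 12 below 90 Mb had a median of -0.04. The raised and lowered blocks were divided at a fixed position and named for the direction of their genes in these data. Such a division favours shares on one side. The shares and medians of both blocks, at days 0 and 2 too, are thus a description and no separate test of these regions. Of the 250, 52 and 67 genes, 182 (72.8%), 46 (88.5%) and 63 (94.0%) were called in the same direction at day 2, where 40.6%, 64.7% and 77.6% of all genes of these 3 regions were.

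Within the regions, the largest differences were not all of the size of the block. Foxn3, a forkhead repressor in the raised block (99190078 to 99563582), was at 35.5, 46.2 and 48.0 CPM in wild-type day 3 and 214.6, 205.7 and 197.3 CPM in knock-out day 4, a change of 2.25 ± 0.09. Ptpn21 and Itpk1, in the same block, were 1.91 ± 0.12 and 1.83 ± 0.08, and Foxn3 was higher at day 0 (1.09 ± 0.09, adjusted p = 4.04e-09; edgeR). Dnah11, an axonemal dynein in the lowered block, was at 10.5, 12.2 and 8.49 CPM in wild-type day 3 and 1.91, 1.86 and 1.85 CPM in knock-out day 4, and Adssl1 differed by -2.08 ± 0.20. Of 12 genes next to Setd3, Setd3 included, 9 were lower, among them Wars at -1.28 and Yy1 at -0.83. On chromosome 8, Gab1, an adaptor of growth factor receptors, was at 62.3, 90.6 and 95.8 CPM in wild-type day 3 and 250.3, 264.0 and 239.2 CPM in knock-out day 4. Npy1r was 2.20 ± 0.34 and the epithelial splicing factor Esrp2 1.57 ± 0.12 above day 3, the latter at the day 4 level. Dlc1, Cdh11 and Lzts1 went against the chromosome, at -1.78 ± 0.27, -1.75 ± 0.34 and -1.74 ± 0.27.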

How the data were processed

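PolyA RNA of 24 libraries, 8 groups of 3 by genotype and day, was sequenced. The authors deposited whole-number counts per gene that are not normalised. The submitters' processing notes name Trimmomatic, HISAT2 and GRCm38.p6; how reads were counted, on which annotation and with which strand setting, is not given in the sources used. Mitochondrial genes had no counts. Genes were placed by ID with the GENCODE annotation of GRCm38, which matched 55141 of 55401 entries.

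Counts were fitted with edgeR 4.0.16 (R 4.3.3), with TMM scaling, filterByExpr and robust quasi-likelihood tests over all 24 libraries, and p-values were adjusted by Benjamini-Hochberg over 17144 genes at 0.05. CPM values use TMM library sizes, and distances use log2 CPM with a prior count of 2. The ± after a log2 fold change is its size over the square root of F. In counts simulated for knock-out day 4 against wild-type day 3 (16958 genes), the test recovered 61.2% of the 67 genes altered 1.5-fold, 94% of the 67 altered 2-fold and 100% of the 66 altered 4-fold, with 9 false calls among 16758. Each simulated gene had the average spread for its level. Altered genes were drawn above a minimum level in wild-type day 3, and all others were set equal. The simulation held no gene-specific spread and no outlying library, so recovery in the real libraries can be lower.

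The comparison and the gene lists were chosen with earlier results of these data known. Named genes had a group mean of at least 10 CPM: the 8 highest and 8 lowest changes against day 3 outside both days without overlap; the 5 largest wild-type rises and falls at the day 3 level, 4 each at the day 4 level and 4 each part way; the 3 highest and 3 lowest on chromosome 8 and on distal chromosome 12; and list members, lowest adjusted p first. Genes named by another route were chosen after their values were seen. Some genes that met the rule are not reported here. Counting intervals cover counting error only. Alternatives were DESeq2 1.42.0, its size factors, no filter, fitting only the groups compared, other prior counts, and leaving out each library.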

Additional observations from a re-analysis of the deposited data

Results flagged for a closer look

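For 9 named genes, all 3 knock-out libraries lay on one side of all 3 wild-type libraries at day 2 and on the other side at day 4. The difference between the 2 days was not tested. Sez6 (log2 fold change of knock-out against wild-type -0.62 at day 2 and 1.53 at day 4), Spon1 (-0.49 and 3.55) and Ttbk1 (-0.31 and 4.03), which were higher than both wild-type days at knock-out day 4, had day 2 values below wild-type in all 3 libraries. Fam131b (-0.91 and 2.79), Snph (-0.57 and 2.33) and Rspo1 (-0.28 and 2.38), at the wild-type day 3 level, and Grm6 (-0.5 and 1.51), part way, had the same signs. Ttbk1, Rspo1 and Grm6 did not pass the threshold at day 2 (edgeR, Benjamini-Hochberg adjusted p = 0.156, 0.184 and 0.172). A4galt (0.78 and -3.33) and, on chromosome 8, Dlc1 (1.16 and -3.98) were higher at day 2 and lower at day 4.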

How the results depend on the processing

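No direction reversed under any alternative. Of 642 alternative values for 55 named genes, 631 kept their side of the threshold and 11 lost it, Hand1 and Myocd being among those genes. Of 3582 values for 302 list members, 233 lost it, in 78 genes. Fitting only the groups compared gave 701 genes higher and 886 lower at day 0, against 1810 and 1799 in the main fit. The day 0 calls thus depend on the fit. Asking for 1.5-fold against each wild-type day left 831 genes higher and 995 lower than both. Distances to wild-type days 0, 2, 3 and 4 were 4.359, 1.845, 1.082 and 2.368 over the 1000 genes of largest wild-type variance, 1.855, 1.035, 0.7902 and 1.214 with a prior count of 0.5, and 1.383, 0.7213, 0.5659 and 0.932 with a prior count of 5. Day 3 stayed nearest in each.

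With 1 library left out, knock-out day 4 against wild-type day 3 gave 2487 to 2904 genes higher and 2476 to 2961 lower, lowest without wild-type day 3 replicate 1, and against wild-type day 4 gave 4071 to 4380 and 4281 to 4559. The wild-type step gave 3371 to 3757 and 3402 to 3823, day 0 gave 1155 (without wild-type replicate 1) to 1880 and 1290 to 1714, and day 2 gave 2189 to 2410 and 1958 to 2330. Outside both days were 1666 to 2098 higher and 1517 to 1882 lower.

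Replicate numbers did not pair knock-out day 4 with wild-type day 3, with same-number correlations of -0.052, 0 and -0.091. The replicate block gave 3116 genes higher and 3182 lower than day 3, 4557 and 4769 against day 4, 3866 and 3978 in the wild-type step, 1849 and 1814 at day 0, 2818 and 2705 at day 2, and 2080 and 1949 outside both. Genes at a few counts, Mesp1, Hand1, Klhl6 and Hkdc1 among them, have only bounds or wide intervals.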

Other observations

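Chromosome 11 stood out after the values were seen. Of its 1316 tested genes, 240 (18.24%) were lower than both wild-type days and 96 (7.295%) higher, beside 11.2% and 12% of all genes. Chromosome X had 15.38% lower and 10.26% higher. The median log2 fold change of chromosome 11 was -0.11 against wild-type day 3 and -0.13 against day 4. The genotype medians of the same genes were -0.03 at day 0 and -0.05 at day 2.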
